A study of Mus musculus with 186 samples.

Results

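The 8 genes described here, Gsk3a, Gsk3b, Ctnnb1, Axin1, Axin2, Apc, Tcf7l2 and Lef1, encode the glycogen synthase kinase 3 (GSK3) pair and core parts of the Wnt/beta-catenin pathway. They were chosen by name, because GSK3 is a binding partner of AKAP11, and are 8 of the 28338 genes in the table. Bulk RNA was sequenced from 6 brain regions of mice carrying an Akap11 mutation: striatum (STR), thalamus (TH), prefrontal cortex (PFC), hippocampus (HP), substantia nigra (SN) and somatosensory cortex (SSC). Mice were 4 or 12 weeks old and were wild type (WT), Akap11 +/- (HET) or Akap11 -/- (KO). Together these give 36 groups of 5 or 6 libraries each, 186 in all, 96 at 4 weeks and 90 at 12 weeks. The labels name no other allele, Cre or treatment. They give neither strain nor sex, nor whether libraries with the same number came from one animal, so p-values measure the spread between libraries.

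GSK3 is a kinase with 2 isoforms, alpha (Gsk3a) and beta (Gsk3b). In the destruction complex, the scaffolds AXIN1, AXIN2 and APC hold beta-catenin (Ctnnb1) so that GSK3 can phosphorylate it and mark it for degradation. Wnt ligands that bind Frizzled and LRP receptors disable this complex, and beta-catenin then enters the nucleus and activates genes together with TCF/LEF factors such as TCF7L2 and LEF1. Axin2 is a widely used target gene and feedback inhibitor of the pathway. AKAP11 anchors protein kinase A (PKA), which can phosphorylate and inhibit GSK3, and lithium, a mood stabiliser, inhibits GSK3. In the brain, Tcf7l2 and Lef1 are known as thalamic neuron genes.

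Levels below are given in CPM, the count of a gene relative to the library's total, scaled between all 186 libraries by the trimmed mean of M values (TMM). The totals ran from 20.8 to 73.3 M per library. Akap11 itself was lower in KO than in WT in 12 of 12 sets of region and age, at 5.08% to 7.98% of the WT level, and all 12 differences were called. In HET it was at 50.2% to 61.8% of the WT level over the 12 sets, and 10 of these differences were called. The substantia nigra library labelled WT 92 at 4 weeks stood apart, with Akap11 at 44.8 CPM against 197 to 245 CPM in the other 5 WT libraries. Regional markers matched the labels at 12 weeks. At 4 weeks, 11 WT or KO libraries of thalamus, striatum and substantia nigra carried a neighbouring region's markers or low levels of their own. The calls of the 8 genes that changed without these doubted libraries are given beside the result. The list is not complete. It leaves in hippocampus WT 23 and WT 914, with 1181 and 857 CPM of thalamic neuron markers. It also leaves in somatosensory HET 93, with 1200 CPM of striatal projection neuron markers. In bulk tissue, fewer cells of a type and less RNA per cell cannot be told apart.

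Promoter sequences are printed for the 2 genes that differed in KO striatum, Gsk3b and Axin2, and for the 2 factors that were highest in thalamus, Tcf7l2 and Lef1. They come from RefSeq on GRCm38.p6, 250 bases before to 50 after the start nearest to the annotated gene start, 5′ to 3′ on the gene's strand, here plus for all 4. Capitals mark a TCF/LEF core, CTTTGA, read on either strand. Windows were found for 6 of the 8 genes, and Axin1 and Apc were not matched.
Gsk3b, chr16:38088751-38089050: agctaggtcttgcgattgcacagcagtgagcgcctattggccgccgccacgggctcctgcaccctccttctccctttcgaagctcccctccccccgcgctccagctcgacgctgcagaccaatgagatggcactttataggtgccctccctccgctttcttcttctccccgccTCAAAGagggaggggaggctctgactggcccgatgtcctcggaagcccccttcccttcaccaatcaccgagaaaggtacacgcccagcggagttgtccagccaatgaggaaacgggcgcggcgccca
Axin2, chr11:108920099-108920398: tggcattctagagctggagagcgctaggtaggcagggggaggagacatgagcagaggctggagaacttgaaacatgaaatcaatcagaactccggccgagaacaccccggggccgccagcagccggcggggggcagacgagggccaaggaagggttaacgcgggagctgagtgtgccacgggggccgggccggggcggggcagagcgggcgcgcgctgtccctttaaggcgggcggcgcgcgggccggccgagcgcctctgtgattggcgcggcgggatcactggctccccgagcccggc
Tcf7l2, chr19:55741560-55741859: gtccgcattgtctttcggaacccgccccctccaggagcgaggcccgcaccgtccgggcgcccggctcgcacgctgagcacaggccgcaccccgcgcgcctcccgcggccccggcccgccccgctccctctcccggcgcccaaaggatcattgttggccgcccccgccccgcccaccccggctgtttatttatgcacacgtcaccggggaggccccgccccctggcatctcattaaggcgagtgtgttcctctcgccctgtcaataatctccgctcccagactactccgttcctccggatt
Lef1, chr3:131110073-131110372: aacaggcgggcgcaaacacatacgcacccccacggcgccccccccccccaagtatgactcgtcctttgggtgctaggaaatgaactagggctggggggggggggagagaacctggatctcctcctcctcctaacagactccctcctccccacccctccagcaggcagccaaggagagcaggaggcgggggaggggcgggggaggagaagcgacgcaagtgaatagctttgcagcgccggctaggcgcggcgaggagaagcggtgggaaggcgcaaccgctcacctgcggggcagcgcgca
The Gsk3b window held 1 core, on the minus strand, and the Gsk3a window held 1. The Axin2, Tcf7l2 and Lef1 windows printed here held none, while another Lef1 window, further into the gene, held 2. Of all 32851 windows of the table, 5257 held the core (16.003%). The cAMP response element TGACGTCA, bound by CREB downstream of PKA, was in none of the 11 windows of these genes and in 1.79% of all windows. The 4 windows were 63.0% to 70.0% G and C, against a median of 52.7% over all windows.

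Each of the 8 genes was measured in all 186 libraries and passed the filter on low counts in every fit, at 54 counts or more in any library. Gsk3a, Axin1 and, outside striatum, Gsk3b varied little between regions. The mean of Gsk3a over the groups spanned 190 to 295 CPM and that of Axin1 21.0 to 33.4 CPM. Tcf7l2 spanned the widest range, from a group mean of 2.36 CPM to 478 CPM, and Lef1 the next, from 3.59 to 170 CPM.

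**Figure D1:**
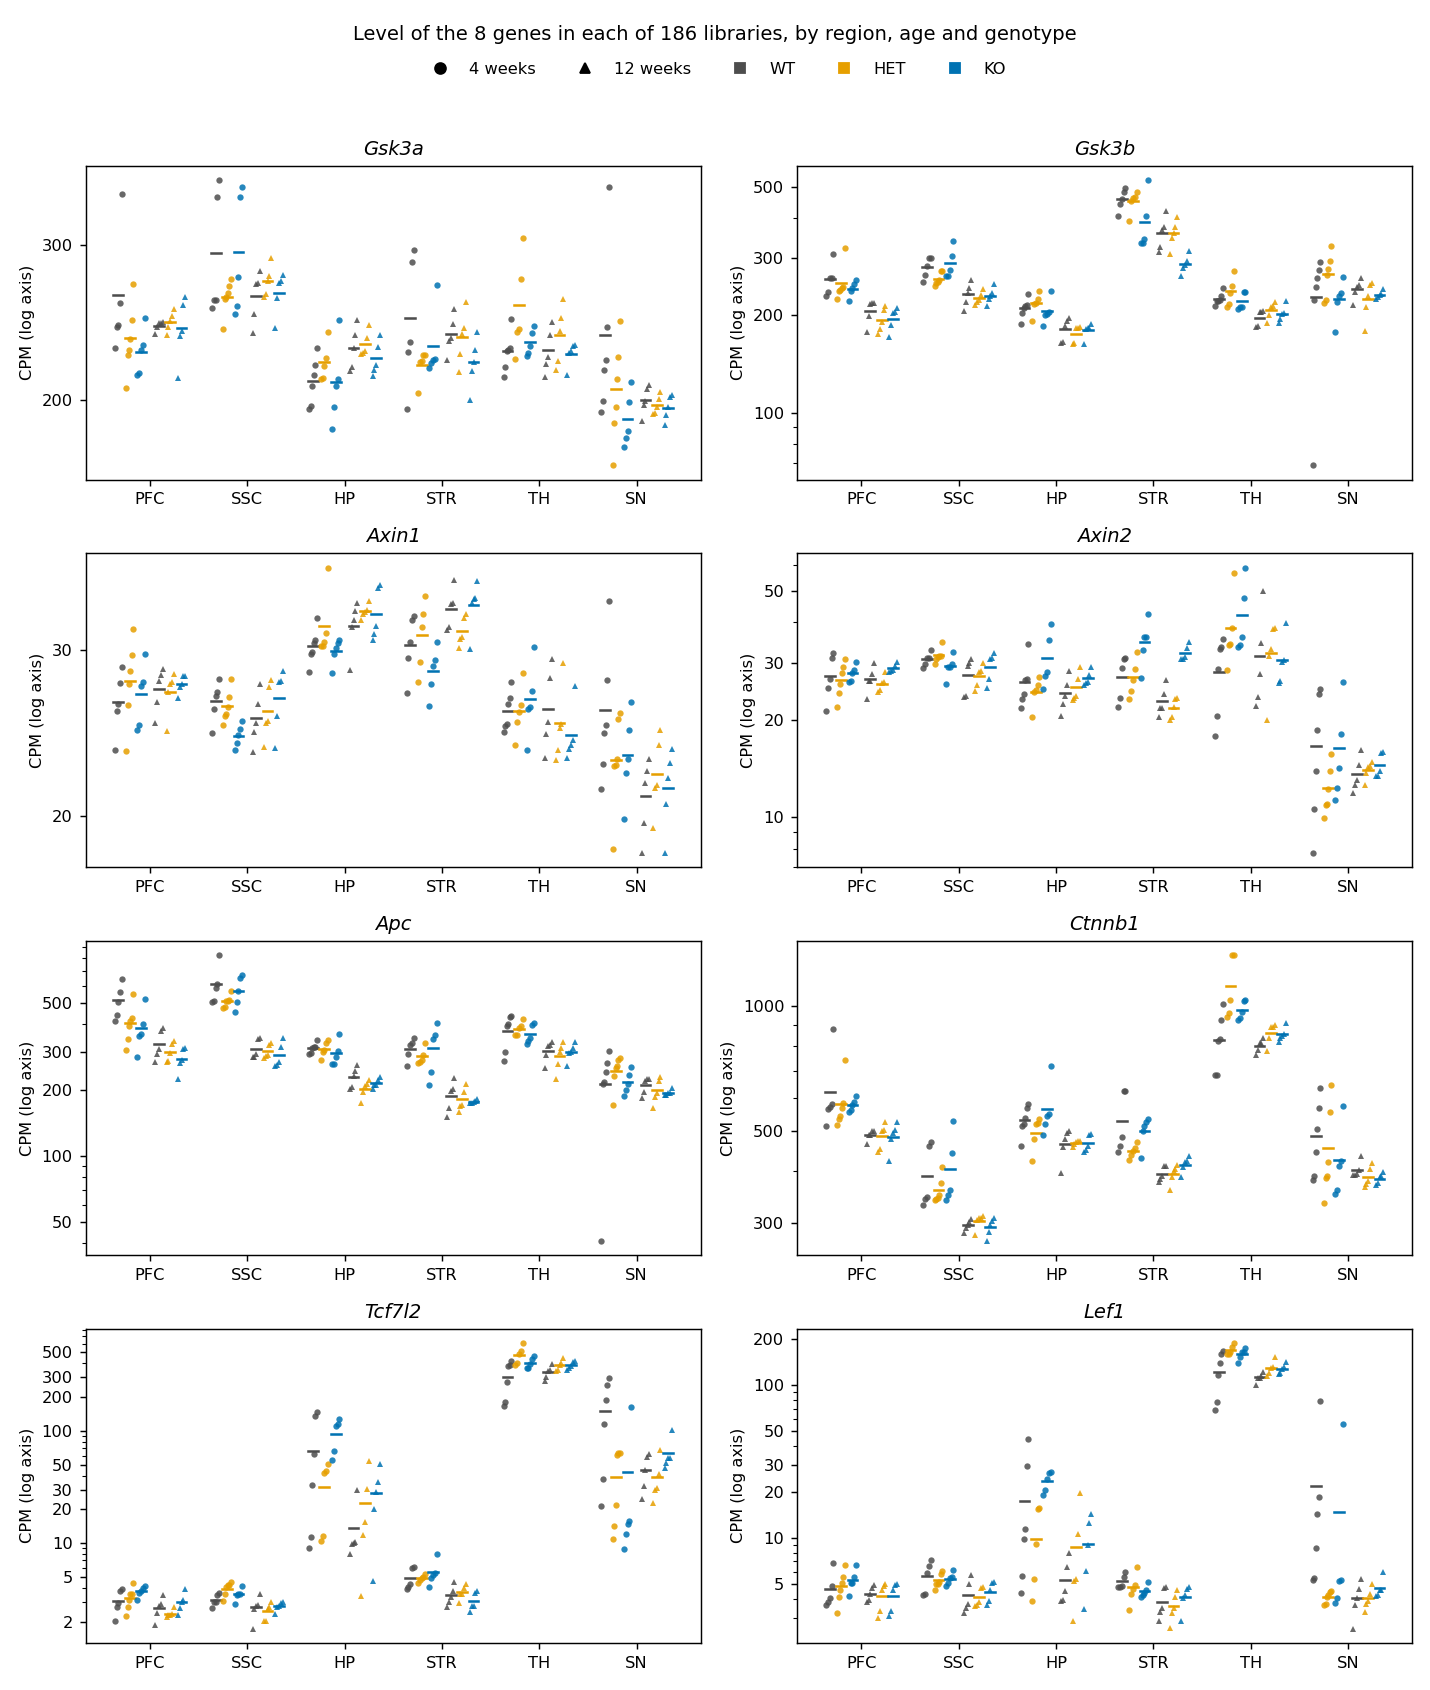
Level of each of the 8 genes (CPM, log axis) in each of 186 libraries, by region on the horizontal axis, with circles for 4 weeks, triangles for 12 weeks, colours for genotype and short bars for group means. Gsk3b stands highest in striatum, Tcf7l2 and Lef1 in thalamus, and the single low points of Gsk3b (68.6 CPM) and Apc (41.0 CPM) in substantia nigra are both the library labelled WT 92.

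Gsk3b, the beta isoform, was highest in striatum. In WT striatum at 12 weeks its 5 libraries held 313, 326, 368, 375 and 421 CPM, and every one lay above all WT libraries of the other 5 regions, whose group means ran from 181 to 241 CPM. At 4 weeks the 5 striatal libraries ran from 405 to 495 CPM, again clear of the other regions. Against the mean of the other 5 regions, striatal Gsk3b was higher by 0.96 ± 0.14 (SE, log2) at 4 weeks and 0.79 ± 0.06 at 12 weeks (edgeR quasi-likelihood test, adjusted p = 9.25e-07 and 1.96e-13). In thalamus at 4 weeks Gsk3b was at -0.29 (adjusted p = 0.0955), and called at the same size without the doubted libraries (0.00709). In hippocampus at 4 weeks Gsk3b was at -0.42 (adjusted p = 0.0224), where 36.4% of genes were called. That call was kept in 7 of 11 alternatives. Each of the other regions overlapped its neighbour in the order, so that neighbours are not resolved. At 12 weeks substantia nigra (215 to 261 CPM) lay above all of thalamus (184 to 206 CPM) and hippocampus (164 to 196 CPM). Gsk3b was called lower at that age in hippocampus (-0.42, edgeR adjusted p = 1.05e-06), thalamus (-0.28, 1.61e-04) and prefrontal cortex (-0.20, 0.00515). In these, 54.4%, 66.9% and 57.0% of genes were called. The prefrontal call was lost without the libraries numbered WT 2 (0.119). Such regional differences are the rule in these data. Of all genes tested, 52.9% were called in striatum at 4 weeks and 67.3% at 12 weeks.

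Gsk3a, the alpha isoform, was flat by comparison. Its WT means at 12 weeks fell in the order SSC 262, PFC 243, STR 238, HP 229, TH 228 and SN 200 CPM, with no gap between neighbours except the last. In substantia nigra it was lower by 0.27 ± 0.04 (log2) at 12 weeks (edgeR adjusted p = 6.35e-07), where 67.8% of all genes were called. In somatosensory cortex it was higher by 0.22 ± 0.04 at 12 weeks and 0.34 ± 0.10 at 4 weeks, where 56.4% and 38.4% of genes were called. The 4-week call was lost without the libraries numbered WT 142 (adjusted p = 0.0853). Per kilobase of its longest annotated transcript, Gsk3a stood above Gsk3b in every region and age, for example 105 against 43.4 CPM per kilobase in WT striatum at 12 weeks.

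Among the scaffolds, Axin1 was highest in striatum and hippocampus. Axin2 was lowest in substantia nigra, as was Axin1 at 12 weeks. Striatal Axin1 ran from 31.4 to 35.5 CPM in the 5 WT libraries at 12 weeks, 0.36 ± 0.05 (log2) above the other regions (edgeR adjusted p = 6.19e-07). Hippocampal Axin1 was higher by 0.28 ± 0.05 at 12 weeks, where 54.4% of genes were called, and by 0.16 ± 0.06 at 4 weeks, where 36.4% were. The 4-week call was lost in 3 of the fits that left out 1 library number, with adjusted p up to 0.103. In substantia nigra Axin1 was at -0.45 at 12 weeks (edgeR adjusted p = 3.79e-08), where 67.8% of genes were called. There it was at -0.14 at 4 weeks (adjusted p = 0.0484), a call kept in 4 of 11 alternatives. Axin2 in WT substantia nigra held 11.9, 12.5, 13.03, 14.5 and 16.1 CPM at 12 weeks, below every WT library of the other regions, the nearest being striatum from 20.3 CPM. The difference was -0.96 ± 0.13 at 12 weeks and -0.77 ± 0.17 at 4 weeks (edgeR adjusted p = 1.28e-07 and 3.40e-04), with 59.0% of genes called at the younger age. In WT thalamus Axin2 spread from 22.0 to 50.1 CPM at 12 weeks, the widest range of its WT groups at that age. Thalamic Axin2 was called higher at 12 weeks, at 0.49 (edgeR adjusted p = 4.18e-04), where 66.9% of genes were called. That call held in all 9 alternatives, at 0.29 to 0.57. At 4 weeks thalamic Axin2 was at 0.17 (adjusted p = 0.401), and at 0.36 and called without the doubted libraries (0.0433).

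Apc, the large scaffold mutated in familial colon polyposis, was highest in cortex. At 4 weeks WT somatosensory cortex held 504, 512, 585, 613 and 827 CPM and prefrontal cortex 414 to 644 CPM. The difference from the other regions was 0.90 ± 0.19 (log2) in somatosensory cortex and 0.58 ± 0.20 in prefrontal cortex, where 43.0% of genes were called. The latter was lost without the libraries numbered WT 914 (adjusted p = 0.0634). At 12 weeks it was 0.35 ± 0.08 and 0.41 ± 0.08, the latter with 57.0% of genes called. Thalamic Apc was also called higher at 12 weeks, at 0.28 (edgeR adjusted p = 0.00313), where 66.9% of genes were called. Its mean there was 302 CPM, against 310 CPM in somatosensory and 325 CPM in prefrontal cortex, and the libraries overlapped. Apc was low in substantia nigra at 4 weeks, -0.96 ± 0.20, although that mean includes the library labelled WT 92 at 41.0 CPM. The other 5 libraries there held 213 to 303 CPM. That call held in all 11 alternatives, at -1.13 to -0.70. At 12 weeks Apc was called lower in striatum (-0.51, edgeR adjusted p = 5.95e-06) and substantia nigra (-0.34, 7.24e-04). In these, 67.3% and 67.8% of genes were called. Without the doubted libraries Apc was also called lower at 4 weeks in hippocampus (-0.33, adjusted p = 0.00386) and striatum (-0.35, 0.00646), from -0.29 and -0.26 with them.

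Beta-catenin itself, Ctnnb1, was highest in thalamus and lowest in somatosensory cortex. The 5 WT thalamic libraries held 762, 783, 815, 816 and 836 CPM at 12 weeks, above every other WT library at that age. Somatosensory cortex held 285 to 307 CPM, below every other. Thalamic Ctnnb1 was higher than the other regions by 0.98 ± 0.04 (log2) at 12 weeks, where 66.9% of genes were called, and by 0.71 ± 0.11 at 4 weeks, where 48.1% were (edgeR adjusted p = 6.46e-20 and 2.41e-06). Somatosensory Ctnnb1 was lower by 0.72 ± 0.04 and 0.57 ± 0.13. In substantia nigra at 4 weeks it was at -0.24 (adjusted p = 0.0741), and at -0.39 and called without the doubted libraries (0.0104).

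The nuclear factors Tcf7l2 and Lef1 marked thalamus. WT thalamus at 12 weeks held 277, 305, 339, 347 and 392 CPM of Tcf7l2, against at most 62.2 CPM in any other WT library of that age. For Lef1 it held 101, 112, 112, 115 and 121 CPM, against at most 7.92 CPM elsewhere. The thalamic excess was 5.59 ± 0.17 (log2) for Tcf7l2 and 4.69 ± 0.11 for Lef1 at 12 weeks, and 4.46 ± 0.35 and 3.79 ± 0.34 at 4 weeks (edgeR adjusted p from 2.47e-24 to 1.95e-10). The factors parted in substantia nigra. There WT Tcf7l2 at 12 weeks (24.7 to 62.2 CPM) was higher than the mean of the other regions by 2.12 ± 0.18, and Lef1 (2.54 to 5.34 CPM) was lower by 1.07 ± 0.16. In cortex and striatum neither exceeded 7.97 CPM in any library.

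In hippocampus the 2 factors followed thalamic markers from library to library. The correlation of log levels with the score of 7 thalamic neuron markers was r = 0.97 for Tcf7l2 at both ages, and 0.98 and 0.93 for Lef1 (16 libraries at 4 weeks and 15 at 12, sharing dissection and scaling). In WT hippocampus at 4 weeks, libraries 914 and 23 held 136 and 148 CPM of Tcf7l2, and their thalamic markers summed to 857 and 1181 CPM. Libraries 92 and 42 held 9.12 and 11.4 CPM, with 140 and 157 CPM of markers. In substantia nigra at 4 weeks, WT 42 held 79.2 CPM of Lef1 and KO 91 held 56.0 CPM. These libraries had 2483 and 1680 CPM of thalamic markers and 31.9 and 148 CPM of dopamine neuron markers, the latter against 959 to 4470 CPM in the 13 libraries other than these, KO 44 and WT 92. The part of neighbouring thalamic tissue in these levels was not tested.

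**Figure D2:**
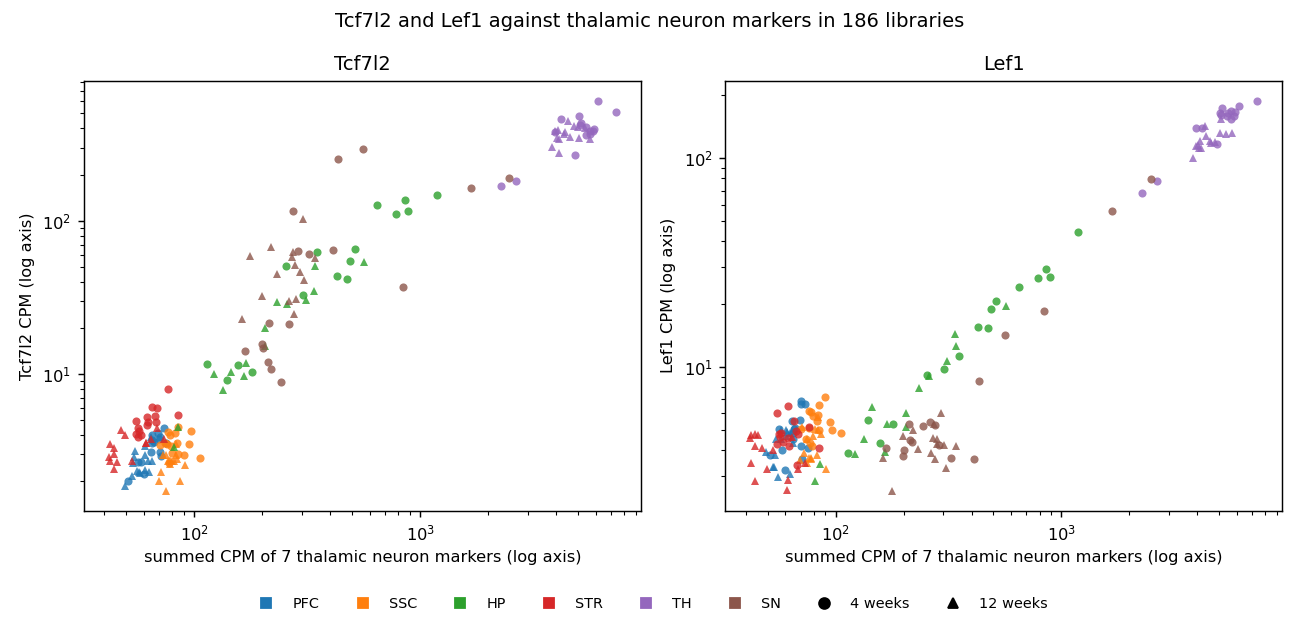
Tcf7l2 (left) and Lef1 (right) in CPM against the summed CPM of 7 thalamic neuron markers, both on log axes, for 186 libraries coloured by region, with circles for 4 weeks and triangles for 12 weeks. Hippocampal libraries form a line that runs up to the thalamic libraries, and the 2 substantia nigra libraries with the highest Lef1 (79.2 and 56.0 CPM) have the most thalamic markers of that region.

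Across the 36 group means, Tcf7l2 and Lef1 followed each other (r = 0.88, log2 scale), and Ctnnb1 followed Lef1 (r = 0.86) and Tcf7l2 (r = 0.73). Gsk3a and Gsk3b did so only weakly (r = 0.14). These values describe groups that share regions and libraries. Of 11621 genes with a mean of at least 5 CPM, the 3 most like Gsk3b were Ppargc1b (r = 0.93), Ept1 (0.93) and Ece1 (0.91), and those most like Axin2 were Prmt8 (0.93), Cnnm1 (0.92) and Mycn (0.92). Tcf7l2 was most like Shox2 (0.99), Epn3 (0.98) and Tunar (0.97), and Lef1 most like Abhd12b (0.99), Atp2a1 (0.99) and Gjc1 (0.98). For Ctnnb1 they were Sh3bp4 (0.94), Esyt2 (0.94) and Unc45a (0.93), for Apc Rab11fip4 (0.92), Adap1 (0.91) and Uggt1 (0.90), for Axin1 Adck3 (0.95), Tle1 (0.94) and Mta2 (0.93), and for Gsk3a they included Rnf126 (0.90) and Sgsm3 (0.90). Of these, Tle1 encodes a corepressor that binds TCF/LEF factors. Per kilobase of transcript, Ctnnb1 or Gsk3a ranked first of the 8 genes in every region and age, Gsk3a in somatosensory cortex at both ages. With the union of exons as the length, Gsk3a (81.9) also passed Ctnnb1 (76.1 CPM per kilobase) in striatum at 12 weeks.

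Loss of Akap11 changed 2 of the 8 genes, both in striatum at 12 weeks, where Gsk3b fell and Axin2 rose. The 5 KO libraries held 265, 280, 285, 294 and 316 CPM of Gsk3b, against 313, 326, 368, 375 and 421 CPM in WT and 309, 346, 360, 376 and 403 CPM in HET. All but the highest KO library lay below every WT and HET library. The mean fell from 361 ± 43.0 CPM (SD, n = 5) in WT to 288 ± 18.7 CPM (n = 5), a log2 change of -0.34 ± 0.08 (edgeR adjusted p = 0.0172). KO striatum thus held 79.2% of the WT level and still more Gsk3b than any WT group mean elsewhere at that age, the next being 241 CPM in substantia nigra.

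Axin2, the target gene and scaffold, moved the other way. The KO libraries held 30.7, 30.9, 31.4, 33.2 and 34.9 CPM, against 20.3, 21.7, 21.8, 24.1 and 26.6 CPM in WT and 19.97, 20.4, 21.9, 23.1 and 23.3 CPM in HET. Every KO library lay above every WT and HET library. The mean rose from 22.9 ± 2.47 CPM (SD, n = 5) in WT to 32.2 ± 1.78 CPM (n = 5), a log2 change of 0.48 ± 0.08 (edgeR adjusted p = 0.00143). In this comparison 4.42% of all genes tested were called, and 2 of the 8 genes. Both calls held in all 18 alternatives, among them leaving out any library, with the largest adjusted p at 0.0495 for Gsk3b (without WT 4) and 0.00651 for Axin2. The 6 cortical and hippocampal excitatory neuron markers summed to 1.67 to 7.76 CPM in KO and 2.15 to 5.14 CPM in WT, near 0 in both.

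**Figure D3:**
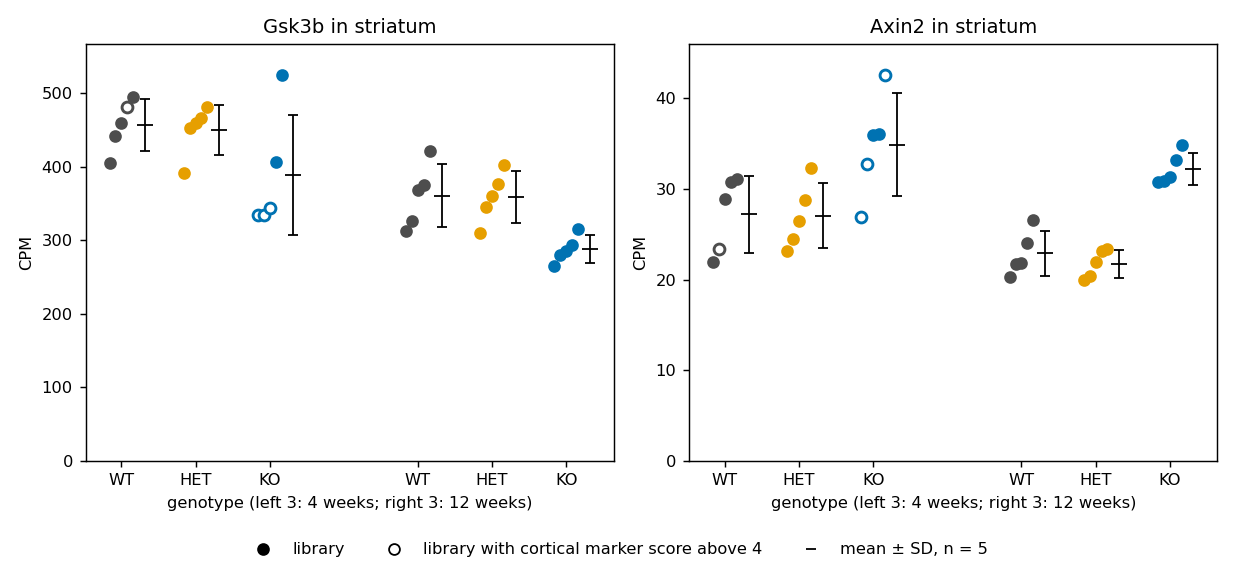
Gsk3b (left) and Axin2 (right) in CPM in each striatal library by genotype, 4 weeks in the left 3 columns and 12 weeks in the right 3, with the mean ± SD (n = 5) beside each column. Open points are libraries with a mean log2(CPM + 1) of cortical markers above 4. At 12 weeks the KO libraries of Axin2 (30.7 to 34.9 CPM) lie above all others, and at 4 weeks the 3 lowest KO libraries of Gsk3b are open points.

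The same 2 genes differed from HET, which shares the KO libraries with the comparison above. KO against HET at 12 weeks gave -0.33 ± 0.08 (log2) for Gsk3b and 0.55 ± 0.08 for Axin2 (edgeR adjusted p = 0.0201 and 4.46e-04), where 4.79% of all genes were called. The Gsk3b call was lost without HET 3, HET 4, KO 2 or KO 5, with adjusted p from 0.0505 to 0.0560. HET and WT did not differ detectably, at -0.01 ± 0.08 for Gsk3b and -0.07 ± 0.08 for Axin2.

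At 4 weeks neither gene was called in striatum, where 3.35% of all genes were called against WT and 3.88% against HET. Gsk3b held 335, 335, 344, 406 and 525 CPM in KO and 405, 442, 459, 481 and 495 CPM in WT, a log2 difference of -0.23 ± 0.12 (edgeR adjusted p = 0.314). The lowest 3 KO libraries, 163, 51 and 161, were those with cortical marker scores of 5.25 to 6.28, against 0.44 and 0.55 in KO 12 and KO 932. WT 92, with a score of 5.10, held 481 CPM. Over the 15 libraries Gsk3b followed this score with r = -0.73. Without these 4 libraries the Gsk3b difference was 0.04 ± 0.13 (adjusted p = 0.911), and without KO 12 alone it was -0.36 ± 0.08 (adjusted p = 0.0200). The 6 cortical markers summed to 3.80 to 1486 CPM in KO, 3.48 to 803 CPM in WT and 3.83 to 114 CPM in HET, with none of the 6 at 0 throughout a group. With the cortical score as a covariate, a fit chosen after seeing the data, the Gsk3b difference was -0.14 ± 0.10 (adjusted p = 0.552).

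Axin2 in striatum at 4 weeks held 26.9, 32.8, 35.98, 36.1 and 42.6 CPM in KO and 21.9, 23.4, 28.9, 30.7 and 31.0 CPM in WT. The difference was 0.36 ± 0.13 (log2, edgeR adjusted p = 0.142), and 0.34 ± 0.14 without the same 4 libraries. KO 12 and KO 932, which had low cortical scores, held 35.98 and 36.1 CPM, above all 5 WT libraries. The KO effect did not differ detectably between the ages in any region: 0 of 48 gene and region pairs were called and 2 had an unadjusted p under 0.05, with 0.0% of all genes called in each of the 6 regions (edgeR). For striatum the age difference of the effect was -0.11 ± 0.14 for Gsk3b and 0.11 ± 0.15 for Axin2.

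The fall of Gsk3b was larger in striatum than the mean change in the other 5 regions at 12 weeks, by 0.31 ± 0.08 (log2, edgeR adjusted p = 0.0100), where 3.11% of genes were called. Leaving out the libraries numbered WT 4 ended this call (-0.24, adjusted p = 0.115). In the other regions at 12 weeks the Gsk3b change lay between -0.08 and 0.05. For Axin2 the same contrast gave 0.40 ± 0.14 (adjusted p = 0.101), with changes of -0.04 to 0.15 in the other regions, so that the striatal rise was not shown to differ from them. At 4 weeks none of the 8 genes was called in this contrast, with 3.52% of genes called, and 0 of 8 differed at an unadjusted p under 0.05.

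**Figure D4:**
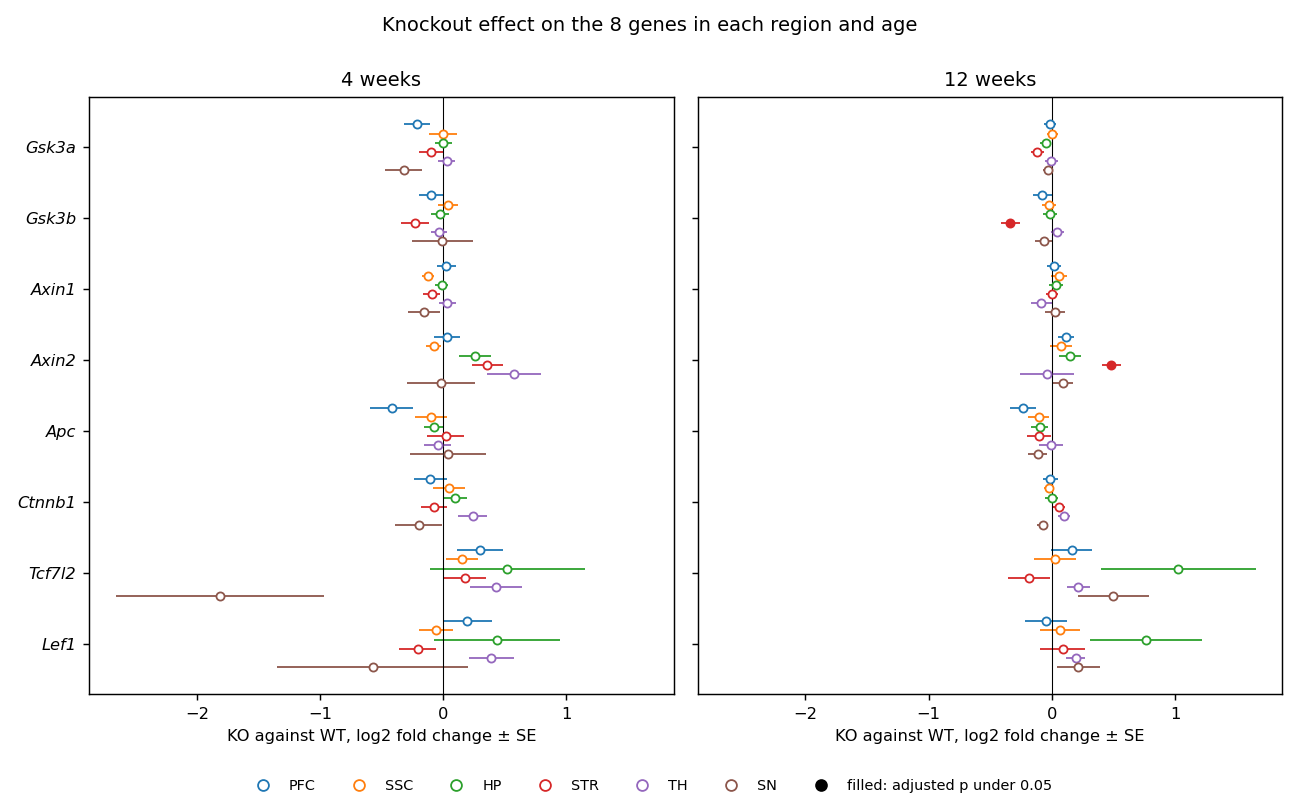
KO against WT log2 fold change ± SE for each gene in 6 regions (colours) at 4 weeks (left) and 12 weeks (right), filled where the adjusted p is under 0.05. The 2 filled points are Gsk3b (-0.34) and Axin2 (0.48) in striatum at 12 weeks, and the widest bars belong to Tcf7l2 and Lef1 in substantia nigra and hippocampus.

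Outside striatum, 0 of 80 gene and set pairs were called against WT. Few genes of any kind were: 0.00608% of all genes in hippocampus, 0.0123% in prefrontal cortex, 0.0252% in somatosensory cortex, 0.0364% in substantia nigra and 0.0064% in thalamus at 12 weeks. At 4 weeks the shares were 0.00609%, 0.0125%, 0.0564%, 0.00617% and 0.0128% in the same order. These shares count Akap11 itself. It was the only gene called in hippocampus at both ages, in thalamus at 12 weeks and in substantia nigra at 4 weeks. Ctnnb1, the pathway's effector, differed by -0.07 to 0.10 at 12 weeks and by -0.20 to 0.24 at 4 weeks over the 6 regions. Axin1 differed by -0.08 to 0.06 and -0.16 to 0.03, and Gsk3a by -0.12 to 0.00 and -0.32 to 0.03. Apc was lower in KO in 6 of 6 regions at 12 weeks, by 0.01 to 0.24 on the log2 scale, but no region was called (smallest adjusted p = 0.703).

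The widest KO differences were those of Tcf7l2 and Lef1, and none passed. Tcf7l2 in hippocampus at 12 weeks was 1.03 ± 0.63 (log2) higher in KO, with 4.55 to 50.8 CPM against 7.93 to 29.8 CPM in WT. Thalamic markers summed there to 85.1 to 343 CPM in KO and 122 to 233 CPM in WT. In substantia nigra at 4 weeks Tcf7l2 was -1.81 ± 0.84, with 21.3 to 293 CPM in WT and 8.91 to 163 CPM in KO. In thalamus at 12 weeks, where the label's own markers were high in all libraries, KO differed by 0.21 ± 0.09 for Tcf7l2 and 0.19 ± 0.07 for Lef1 (adjusted p = 0.622 and 0.590).

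Averaged over the 6 regions, 0 of 16 gene and age pairs were called, 6 of them at an unadjusted p under 0.05, with 1.0% of all genes called at 12 weeks and 2.14% at 4 weeks. The Axin2 average was 0.15 ± 0.05 (log2) at 12 weeks and 0.18 ± 0.07 at 4 weeks (edgeR adjusted p = 0.161 and 0.197). Without the libraries numbered WT 5 it was 0.22 at 12 weeks and was called (adjusted p = 0.00451).

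With 1 copy of Akap11 lost, 0 of 96 pairs were called by edgeR and 12 had an unadjusted p under 0.05. DESeq2 called 2, Ctnnb1 (0.43) and Tcf7l2 (0.67) in thalamus at 4 weeks, both higher in HET. In that set WT 913 and WT 914 had the lowest thalamic markers, 2281 and 2659 CPM against at least 3935 CPM in the other WT and 5030 CPM in the HET libraries. They also had the lowest Tcf7l2, at 168 and 182 CPM against 270 to 418 CPM, and the lowest Ctnnb1. Without these 2 and WT 23, the edgeR difference was 0.27 for both genes (adjusted p = 0.894). HET 11 and HET 93 of this set, and none of its WT libraries, were among 16 with few whole counts, all at 4 weeks. In those 16, at most 5.55% of the counts above 0 were whole, against at least 17.3% in the others. The share of all genes called by edgeR was 0.00608% in hippocampus, 0.00613% in prefrontal cortex, 0.00629% in somatosensory cortex, 0.00606% in substantia nigra and 0.0064% in striatum and thalamus at 12 weeks. At 4 weeks it was 0.0%, 0.00626%, 0.00627%, 0.0%, 0.00648% and 0.00639% in the same order. In each set with a call, the only gene called was Akap11 itself.

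Of the other genes of the pathway, 103 were placed in 7 lists by role, and 102 were in the table. In KO striatum at 12 weeks, 0 rose and 3 fell among 92 tested (3.26%, against 4.42% of all genes), and the median change was -0.03 against 0.01 over all genes. The 3 were Rspo1, a secreted amplifier of Wnt signalling, Dkk2, a secreted Wnt antagonist, and Ccnd1, the cyclin D1 gene and a target. Of 20 receptors, 15 cytoplasmic genes, 12 nuclear partners and 11 GSK3 regulators, partners and substrates tested, 0 were called.

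Rspo1 in striatum at 12 weeks held 2.05, 2.55, 2.76, 3.05 and 3.43 CPM in KO and 6.08, 6.57, 6.92, 7.22 and 8.39 CPM in WT. The groups did not overlap, and the change was -1.36 ± 0.16 (log2, edgeR adjusted p = 7.46e-05). At 4 weeks it held 1.54 to 2.68 CPM in KO and 3.04 to 4.54 CPM in WT, a change of -0.92 ± 0.17 (adjusted p = 0.00671). That call was kept in 18 of 19 alternatives and missed with only the 2 genotypes compared (adjusted p = 0.0518). Dkk2 held 0.744, 0.946, 1.14, 1.20 and 1.30 CPM in KO and 2.90, 3.00, 3.32, 5.85 and 5.99 CPM in WT at 12 weeks. Its change was -1.99 ± 0.28 at 12 weeks and -1.63 ± 0.26 at 4 weeks (adjusted p = 4.92e-04 and 0.00243). Both genes were low in abundance. Both striatal falls at 12 weeks exceeded the mean change in the other 5 regions. They were larger by 1.23 ± 0.30 (log2) for Rspo1 and 1.89 ± 0.33 for Dkk2. Among those regions, Rspo1 was at -1.43 ± 0.79 in thalamus (edgeR adjusted p = 0.731) and at 0.08 to 0.34 in the rest.

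Ccnd1 fell at 12 weeks by 0.44 ± 0.11 (log2, edgeR adjusted p = 0.0387), with 15.2 to 19.5 CPM in KO and 19.4 to 26.1 CPM in WT. This call was kept in 11 of 18 alternatives, with adjusted p up to 0.106. It was lost without KO 3, KO 4, KO 5, WT 1, WT 2 or WT 4, each left out alone. Its average over the 6 regions was lower in KO at both ages, by 0.26 ± 0.07 at 12 weeks and 0.27 ± 0.07 at 4 weeks (adjusted p = 0.0467 and 0.0207). Tcf7, a TCF factor and target gene, fell at 4 weeks by 0.73 ± 0.16 (adjusted p = 0.0218), with 5.61 to 11.8 CPM in KO and 13.4 to 18.5 CPM in WT. That call was lost without WT 914, WT 42, WT 142 or KO 51, each alone, and without the 4 doubted libraries (-0.54, adjusted p = 0.0546). At 12 weeks it was -0.40 ± 0.13 against WT (adjusted p = 0.119), and it was called against HET at -0.50 ± 0.13. Thus, against WT, the targets Ccnd1 (12 weeks) and Tcf7 (4 weeks) were called lower and Axin2, also a target, higher (12 weeks). The first 2 calls were lost in some alternatives, as given above. Sp5 and Myc, also listed as targets, were not among the genes called.

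At 4 weeks, 0 of 92 pathway genes rose and 3 fell in KO striatum against WT. Against the mean of the other regions, 5 of 96 were called higher and 2 lower, where 496 of all genes were called higher and 123 lower (3.52% in all). The largest of these were Rspo2 at 2.77 ± 0.79 (log2), Wnt9a at 2.16 ± 0.59, Dkk2 at -1.84 ± 0.33 and Frzb at 1.84 ± 0.48. Frzb held 0.887, 0.889, 4.46, 7.12 and 11.2 CPM in the 5 KO libraries, a spread that runs beside the cortical markers given above. Against WT alone, the 3 genes that were higher depended on the doubted libraries. Without these, the change was -0.00097 for Frzb, -0.88 for Wnt9a and -0.87 for Rspo2, none called, and with the cortical score as a covariate it was 0.36, 0.14 and -0.25. Each was called in 1 of 19 alternatives, the one without WT 92, at 2.47, 3.40 and 5.25 in the same order. Against HET, Wnt9a (3.96 ± 1.00) and Sfrp2 (2.10 ± 0.56) were also called at 4 weeks, with the same 3 KO libraries of high cortical markers in the comparison. Against WT, Sfrp2 ran from -0.78 to 1.43 over the alternatives and was called in 0 of 19. Averaged over the regions, Wnt7a was 0.29 ± 0.08 higher in KO at 12 weeks and 0.23 ± 0.07 lower at 4 weeks, and Dkk3 was 0.29 ± 0.06 lower at 12 weeks. In the 10 KO comparisons outside striatum and the 12 HET comparisons, 0 pathway genes were called.

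Lower levels at the older age were found for 3 of the 8 genes. In WT, 0 of 48 gene and region pairs were called higher and 10 lower at 12 than at 4 weeks, in Apc (4 regions), Gsk3b (4) and Ctnnb1 (2). All genes were called at shares of 12.9% in hippocampus, 13.8% in prefrontal cortex, 22.8% in somatosensory cortex, 14.3% in thalamus, 13.6% in striatum and 4.24% in substantia nigra, in both directions. In somatosensory cortex these were 1658 higher and 1921 lower. The ages come from different mice, so that age and cohort cannot be told apart. Neither the age fits nor the region fits at 4 weeks had a covariate for the 16 libraries with few whole counts, all at 4 weeks. The joint part of these libraries was not tested. They include WT 914 and WT 142 in somatosensory cortex and WT 914 in prefrontal cortex. WT 914 and WT 92 are among them in both striatum and substantia nigra, and no WT library of hippocampus or thalamus is. In HET striatum, which held no such library, mean Apc, Gsk3b and Ctnnb1 differed by -0.65, -0.33 and -0.19 (log2). In WT striatum these were -0.72, -0.34 and -0.40.

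Apc fell the most. In WT somatosensory cortex it went from 504, 512, 585, 613 and 827 CPM at 4 weeks to 282, 283, 293, 344 and 348 CPM at 12 weeks, with no overlap. The log2 change was -0.97 ± 0.14 (edgeR adjusted p = 3.20e-04). It was -0.68 ± 0.11 in striatum, -0.66 ± 0.14 in prefrontal cortex and -0.43 ± 0.07 in hippocampus, also with no overlap. All 4 calls held when any library was left out. In thalamus Apc was at -0.30 ± 0.12 (adjusted p = 0.136), and at -0.44 and called without the 3 doubted WT libraries there. The same direction appeared in HET and KO, where mean Apc differed by -0.76 and -0.96 in somatosensory cortex.

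Gsk3b fell by 0.33 ± 0.10 (log2) in prefrontal cortex, 0.27 ± 0.08 in somatosensory cortex, 0.31 ± 0.09 in striatum and 0.19 ± 0.05 in thalamus (edgeR adjusted p = 0.0437, 0.0305, 0.0445 and 0.0262). In WT striatum the libraries went from 405 to 495 CPM at 4 weeks to 313 to 421 CPM at 12 weeks, and the ages overlapped. Each of these 4 calls was lost when some single library was left out: 7 libraries in prefrontal cortex, 6 in somatosensory cortex, 8 in striatum and 2 in thalamus, with adjusted p up to 0.105. The prefrontal call was also lost with DESeq2's size factors in edgeR (0.0511) and with no filter on low counts (0.0574), and the striatal call with no filter (0.0621). Ctnnb1 fell by 0.39 ± 0.11 in somatosensory cortex and 0.38 ± 0.11 in striatum. The somatosensory call held when any library was left out (adjusted p up to 0.0487), and the striatal call was lost without any of 7 libraries (up to 0.0794). Without WT 92 of the younger striatum, left out as doubted, the striatal changes were -0.32 for Gsk3b and -0.34 for Ctnnb1 and not called (adjusted p = 0.0677 and 0.0577). Gsk3a, Axin1 and Axin2 were called in 0 of 6 regions.

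**Figure D5:**
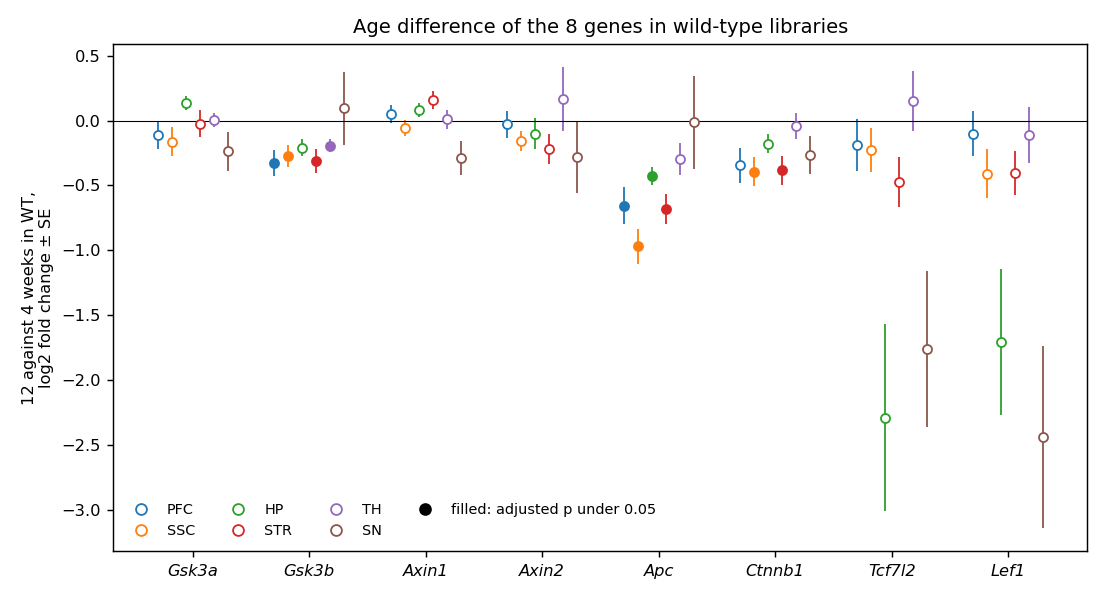
Log2 fold change ± SE of each gene at 12 against 4 weeks in WT, by region (colours), filled where the adjusted p is under 0.05. All 10 filled points lie below 0, the lowest being Apc in somatosensory cortex (-0.97), and the points with the widest bars are Tcf7l2 and Lef1 in hippocampus and substantia nigra.

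Tcf7l2 and Lef1 had the largest age differences without a call. In WT hippocampus Tcf7l2 ran from 9.12 to 148 CPM at 4 weeks and from 7.93 to 29.8 CPM at 12 weeks, a change of -2.29 ± 0.72 (log2, edgeR adjusted p = 0.0557; DESeq2 0.0121). Thalamic markers summed there to 140 to 1181 CPM at 4 weeks and 122 to 233 CPM at 12 weeks. In substantia nigra Lef1 changed by -2.44 ± 0.70 (edgeR adjusted p = 0.0723; DESeq2 0.00189), and by -1.06 without WT 42 and WT 92 (adjusted p = 0.0325). Tcf7l2 there was at -1.76 ± 0.60 (adjusted p = 0.119), and at -1.94 and called without the same 2 libraries (0.0339). In thalamus itself Tcf7l2 changed by 0.15 ± 0.23 and Lef1 by -0.11 ± 0.21. Without the 3 doubted thalamic WT libraries Lef1 was called lower at 12 weeks, at -0.48 (adjusted p = 0.00568).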

How the data were processed

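The authors deposited one table of expected counts per gene for 186 libraries, with 77.9% of the values above 0 not whole. Salmon and the mm10 build are named in the submitters' processing notes. No version, annotation or strand setting was given in the sources used here. RNA came from frozen, cryostat-dissected tissue and a stranded poly-A kit, per the labels' protocols. Deposited counts were rounded and analysed with edgeR 4.0.16 (R 4.3.3): TMM factors, filterByExpr by group, quasi-likelihood tests, and Benjamini-Hochberg adjustment over all genes of each comparison. Genes with an adjusted p under 0.05 count as called, and SE is the absolute log2 change over the root of F. The 3 genotypes of a region and age shared a fit, and region fits used WT only. Depth averaged 46.1 ± 9.60 M counts (SD, n = 186). Replicates were distinct (lowest chi-square per degree of freedom 8.36 over 390 pairs).

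CPM values were scaled by TMM over all libraries. Under scaling within a region and age, 34 of 288 group means moved by over 1 SD, and under total count scaling 38. Scores are means of log2(CPM + 1), computed from the deposited counts. Positions follow GENCODE M21 (GRCm38), which held 95.5% of the table's symbols, and lengths are those of its transcripts. Alternatives were DESeq2 1.42.0, its size factors, no filter, fewer groups or libraries, and a number block (limma 3.58.1 for fits over all regions). Only the 4-week genotype fits also had a covariate for the 16 libraries, all at 4 weeks, with few whole counts. Marker covariates were added after seeing the data. Named pathway genes are up to 4 called per genotype comparison by size of change. For each of the 8 genes, the 3 most correlated genes over the 36 group means are named, except 1 that is not reported here. The members, lists and doubted libraries were chosen with earlier results of these data known. The tests were checked on simulated counts.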

Additional observations from a re-analysis of the deposited data

Results flagged for a closer look

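In 24 of 288 pairs of a gene and a group of 5 or 6 libraries, 1 library lay apart from the rest by Dixon's criterion. Of these, 15 were at 4 weeks. Chance meets the criterion in about 1 of 20 single tests, but these pairs share libraries between genes and are not independent. The substantia nigra library labelled WT 92 at 4 weeks accounted for 3 of them, with Gsk3a at 349 CPM (others 194 to 242), Gsk3b at 68.6 CPM (224 to 292) and Apc at 41.0 CPM (213 to 303). Its Akap11 level was also the lowest of its group, 44.8 CPM. In the same region and age, KO 91 held 163 CPM of Tcf7l2 (others 8.91 to 15.7) and 56.0 CPM of Lef1 (3.74 to 5.32), and WT 42 held 79.2 CPM of Lef1 (5.26 to 18.5). These 2 libraries had the most thalamic markers of that region.

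In prefrontal cortex at 4 weeks, 2 libraries were high in more than 1 gene. WT 914 held 343 CPM of Gsk3a (others 229 to 258) and 879 CPM of Ctnnb1 (515 to 580), and HET 941 held 323 CPM of Gsk3b (225 to 244) and 740 CPM of Ctnnb1 (517 to 585). Other high libraries at 4 weeks were striatum KO 12 for Gsk3a (270.3 CPM), hippocampus KO 51 for Ctnnb1 (718 CPM), hippocampus HET 162 for Axin1 (36.6 CPM) and somatosensory HET 931 for Axin2 (34.8 CPM). Striatum HET 931 was low for Gsk3a (204 CPM, others 221 to 225). Some libraries flagged at 4 weeks were among the 16 with few whole counts. These were prefrontal WT 914 and HET 941, striatum KO 12, hippocampus KO 51 and substantia nigra WT 92. The rest of those flagged at 4 weeks were not, and the part of this trait was not tested.

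At 12 weeks, hippocampus WT 4 held 29.8 CPM of Tcf7l2 (others 7.93 to 10.3) and substantia nigra KO 4 held 103 CPM (46.4 to 57.7). Smaller gaps were found for Lef1 in substantia nigra KO 5 (6.01 CPM), Ctnnb1 in substantia nigra WT 1 (436 CPM), Axin1 in thalamus KO 5 (27.5 CPM) and Tcf7l2 in prefrontal HET 1 (2.71 CPM), all high. Low libraries were thalamus KO 2 for Gsk3a (213 CPM), hippocampus KO 4 for Gsk3b (163 CPM) and somatosensory HET 3 for Ctnnb1 (281 CPM).

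A difference between regions passed its own test, the KO effect on Gsk3b at 12 weeks, which was lower in striatum than in the mean of the other 5 regions by -0.31 (log2).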

How the results depend on the processing

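The striatal KO calls of Gsk3b and Axin2 at 12 weeks held under another normalization, no filter, DESeq2, only the 2 genotypes compared, marker covariates (added after seeing the data) and with each library left out. Leaving out 1 library or library number at a time gave 2 to 3 calls for KO against WT, 0 to 0 for HET against WT, 1 to 3 for KO against HET, 0 to 1 for striatum against the other regions, 0 to 1 for the mean KO effect, 0 to 0 for the age difference of the KO effect, 8 to 12 for age and 49 to 59 for region (56 with all libraries). DESeq2 called 2 HET differences where edgeR called 0. Hippocampal Tcf7l2 against the other regions at 12 weeks turned from 0.05 to -0.51 (adjusted p = 0.00655) without the libraries numbered WT 4, and ran from -0.51 to 0.20 over such fits. Hippocampus WT 4 is the high library given above, and the cause was not tested.

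Samples with the same number at 12 weeks deviated together more than others on average in every comparison examined, with mean correlations of 0.13 against -0.03 between KO and WT striatum. Every pair passed 0.1 between KO and HET prefrontal cortex (0.12 to 0.78), which was not compared here, but not in any genotype comparison tested (-0.20 to 0.41 in KO and WT striatum), so the labels and data leave unsettled whether the numbers pair animals. With the number as a replicate block, KO striatal Gsk3b was -0.33 (adjusted p = 0.00855) and Axin2 0.48 (0.00104), and the counts were 2 calls for KO, 0 for HET, 2 for KO against HET, 56 for region, 1 for striatum against the other regions and 0 for the mean KO effect. No paired analysis was possible because numbers were not shared between genotypes for the 4-week comparisons of genotype, nor between ages. Over the other single results, leaving out a library kept direction and side of the threshold in 4447 fits, ended a call in 61 and made one in 27. Without the doubted 4-week libraries these were 157, 2 and 9. Tcf7l2 and Lef1 in cortex and striatum, at counts as low as 54 for Tcf7l2, have the least precision.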
